A study of Phyllostachys nigra with 21 samples.

Results

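The genes described here encode the shikimate pathway and the enzymes that carry chorismate on to tryptophan, phenylalanine, and tyrosine in culms of the black bamboo Phyllostachys nigra. They were chosen by enzyme names in the gene descriptions (for example DAHP synthase, shikimate kinase, chorismate, anthranilate synthase, tryptophan synthase, arogenate, or prephenate), and 63 of 42460 genes matched. Of these, 58 also carried a KEGG orthology number, and 55 reached an FPKM (fragment count scaled for transcript length and for the mapped fragments of the library) of at least 1 in 3 libraries or more and were tested. The 8 genes that were not tested had no FPKM above 1.92. They were the DAHP synthase gene PH02Gene25114, the shikimate kinase genes PH02Gene34343 and PH02Gene29782, the arogenate dehydrogenase gene PH02Gene02825, 2 genes for inactive shikimate kinase-like proteins (PH02Gene03101 and PH02Gene44325), and both isochorismate synthase genes (PH02Gene27719 and PH02Gene46579).

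The shikimate pathway runs in plastids. It joins phosphoenolpyruvate and erythrose 4-phosphate and ends in chorismate, from which all aromatic amino acids of plants are made. Anthranilate synthase takes chorismate toward tryptophan, the precursor of tryptamine, serotonin, and auxin, whereas chorismate mutase takes it toward phenylalanine and tyrosine, and phenylalanine feeds lignin, flavonoids, and coumarins. In many plants anthranilate synthase is inhibited by tryptophan, and chorismate mutase is activated by tryptophan.

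The study asked how low temperature affects the blackening of culms. RNA-seq was performed on culms of P. nigra plants raised in a greenhouse, in 7 groups of 3 libraries. CK was sampled before treatment, LT1d, LT15d, and LT25d were kept at 4 °C for 1, 15, or 25 days, and RT1d, RT15d, and RT25d were kept at 25 °C for the same times in a parallel chamber. No mutant or transgene was involved, and the sources used here do not say which library came from which plant, so p-values measure the spread between these libraries, which may be technical in part. In bulk tissue, fewer cells of a type and less RNA per cell cannot be told apart.

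Total estimated counts were 33957497 to 50338658 per library, and intervals are limited by the number of libraries. The median coefficient of variation of the 48 genes here with a mean FPKM of at least 5 was 4.43% in LT15d, 4.19% in LT25d, and 4.64% in RT15d, against 12.4% in LT1d, 19.5% in CK, 22.0% in RT1d, and 32.9% in RT25d. The libraries of LT15d, LT25d, and RT15d thus differed far less than those of the other groups, and counts that rest on them are also given with each of these groups summed to 1 library. Green tissue markers (10 of 14 chlorophyll a-b binding protein genes detected at an FPKM of 1 in 3 libraries) summed to 407 to 697 FPKM in CK, 5.36 to 12.98 in LT1d, 388 to 566 in RT1d, 177 to 180 in LT15d, 320 to 355 in RT15d, 128 to 132 in LT25d, and 44.1 to 124 in RT25d. Secondary wall cellulose synthase genes (2 of 3 detected) summed to at most 6.22 FPKM, and COBRA-like genes (7 of 12 detected) to between 68.7 and 167. Among markers of other organs, 7 of 13 pollen-specific genes summed to 16.6 to 55.03 FPKM, and 3 of 10 seed storage genes to 51.0 to 262. The low level of chlorophyll a-b binding protein transcripts in LT1d went together with the Day 1 results below. These transcripts alone do not show the amount of green tissue, and any part of it in those results was not tested.

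Genes were compared with edgeR (TMM scaling, Benjamini-Hochberg adjustment over all 29913 tested genes), and a gene was called at an adjusted p of at most 0.05 and a fold change of at least 2. TMM factors were 0.809 to 0.842 in LT1d and 1.14 to 1.15 in RT1d, so the fitted fold changes exceed the ratios of FPKM at Day 1. Scaling to library size alone moved the median log2 fold change of all genes from -0.06 to -0.53 at Day 1 and from -0.02 to -0.37 at Day 15. Several genes are paired copies of similar description, and reads shared between such copies may have been split, so the values of single copies are uncertain to that extent.

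At Day 1 of LT, the tryptophan branch stood out from the other steps. Of 55 tested genes, 29 were higher and 10 lower in LT1d than in RT1d, where 20.8% of all tested genes were higher and 23.4% lower (44.2% in either direction). Within the tryptophan branch, 14 of 19 genes were higher and 1 was lower, with a median log2 fold change of 3.31, against -0.06 for all genes. In the trunk (DAHP synthase to chorismate synthase) 9 of 19 were higher and 5 lower, and in the phenylalanine and tyrosine branch 4 of 12 were higher and 3 lower. With scaling to library size the split of all 55 was 24 higher and 16 lower, where 4238 of all 29913 tested genes were higher and 10257 lower. With limma on log2(FPKM + 1) it was 23 and 14, where 3441 of all tested genes were higher and 8062 lower. Lower calls thus rose over all genes as well, from 7008 in the main fit. The tryptophan branch kept 14 higher genes under library size scaling, with 3 lower, while the trunk went to 6 and 6 and the phenylalanine and tyrosine branch to 2 and 6. Summed over the 19 genes of the branch, FPKM was 6645 ± 466 in LT1d, 676 ± 141 in RT1d, and 1109 ± 288 in CK (SD, n = 3). These sums leave out genes annotated as tryptophan synthase alpha chains but described otherwise, which are given below. The largest of them, PH02Gene11851, had 670 to 1650 FPKM in CK and 81.4 to 256 in LT1d, so the sums depend on the wording of descriptions.

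**Figure D1:**
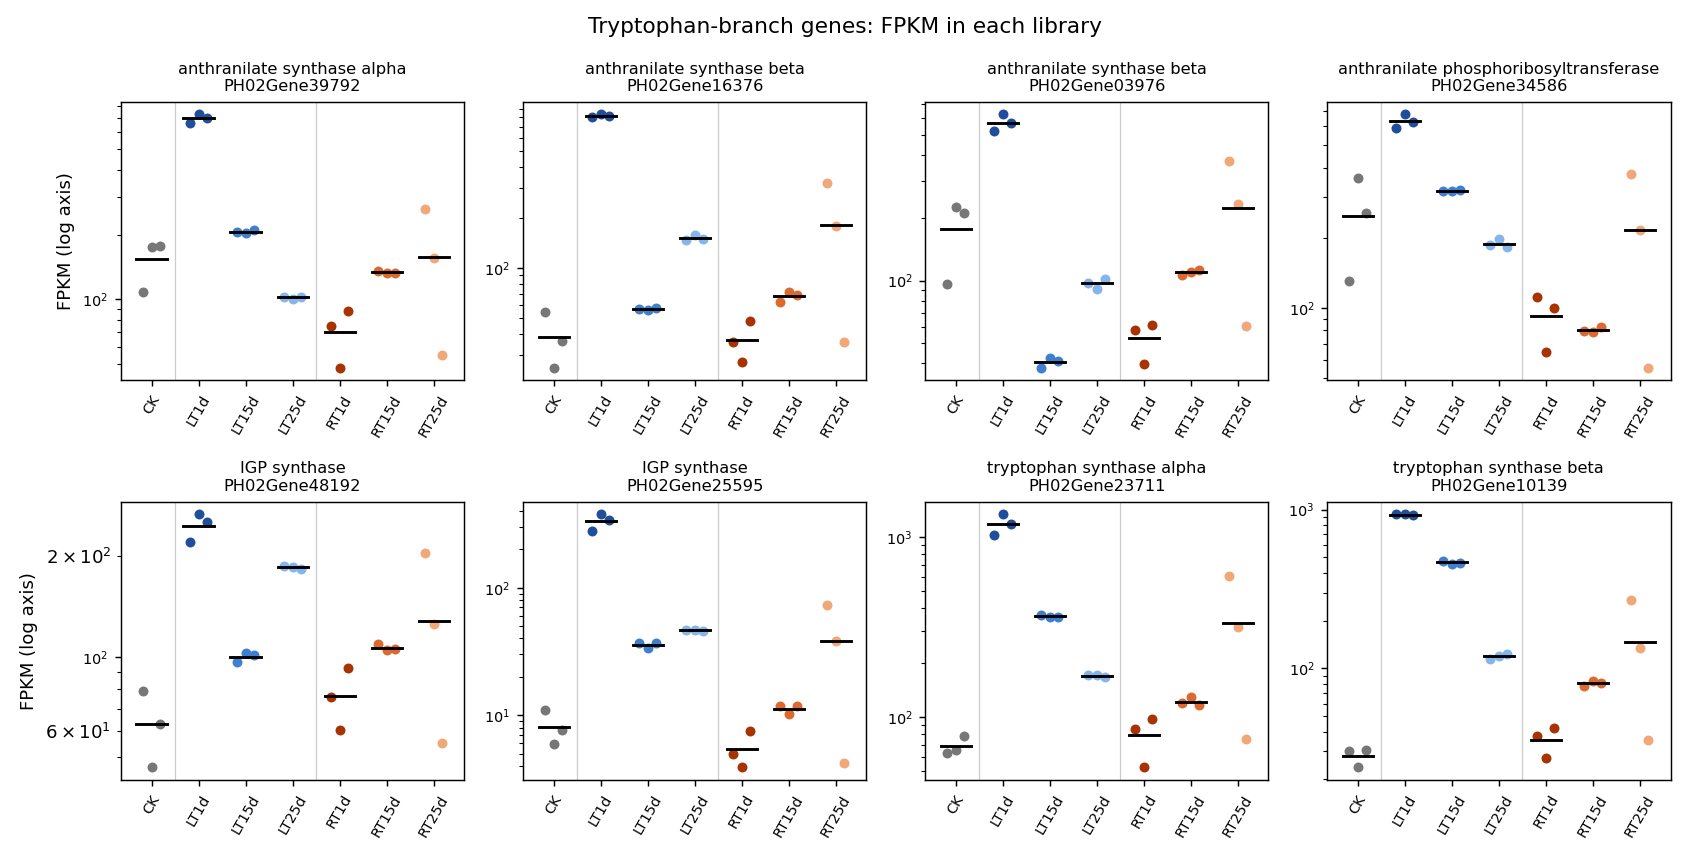
FPKM of 8 tryptophan-branch genes in each of the 21 libraries (y axis, logarithmic, each panel with its own range) by group (x axis). Points are libraries and bars are group means (n = 3). The LT1d libraries are the highest of all groups in each panel, and the RT25d libraries spread widely, for example from 35.3 to 270.5 FPKM for PH02Gene10139.

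Anthranilate synthase opens the branch by converting chorismate to anthranilate, with an alpha subunit for catalysis and a beta subunit that supplies ammonia from glutamine. The alpha subunit gene with the highest mean FPKM was PH02Gene39792 (scaffold 15, 55542936 to 55549731, plus strand, coordinates of the P. edulis genome). It had 665, 728, and 702 FPKM in LT1d and 74.8, 47.9, and 88.2 in RT1d, with 108, 176, and 178 in CK. The groups did not overlap, and the log2 fold change of LT1d against RT1d was 3.84 ± 0.42 (SE, edgeR adjusted p = 3.8e-07). Another gene of the same description, PH02Gene03475, chosen after its values were seen, had 232, 300, and 259 FPKM in LT1d and 32.2, 21.7, and 39.8 in RT1d (log2 fold change 3.60 ± 0.46). Its CK libraries ranged from 83.7 to 276 FPKM, so that LT1d was not called against CK (0.70) while RT1d was lower than CK (-2.91). The remaining alpha genes, PH02Gene33171 and PH02Gene06033, stayed at or below 1.49 FPKM in every library.

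The beta subunit genes differed in level and in course. PH02Gene16376 (scaffold 24, 42423330 to 42426907, minus strand) had 803, 831, and 819 FPKM in LT1d against 35.9, 27.4, and 47.6 in RT1d. CK libraries had 54.2, 25.2, and 36.3, so that only LT1d stood apart among these groups. The log2 fold change was 4.99 ± 0.53 against RT1d (edgeR adjusted p = 3.1e-07) and 4.62 against CK. At Day 15 the LT libraries had 56.8, 55.6, and 57.0 FPKM, and the value against RT15d (0.13 ± 0.45) did not pass the test. PH02Gene03976, described as a maize anthranilate synthase homolog and annotated as a beta subunit, had 519, 626, and 570 FPKM in LT1d and 58.1, 39.8, and 61.2 in RT1d (log2 fold change 3.96 ± 0.49). Its CK libraries lay between, at 96.5, 226, and 210. By fitted fold change LT1d was 3.56-fold above CK and RT1d 4.36-fold below it. The gene was lower in LT at Day 15, at 38.2, 42.7, and 41.0 FPKM against 107, 110, and 112 in RT15d (-1.03 ± 0.44, edgeR adjusted p = 0.047). That call was lost when any library of LT15d or RT15d was left out (log2 fold change -1.08 to -0.99) and with the replicate block (adjusted p = 0.062). PH02Gene48664 was the exception at Day 1, with 15.3, 18.4, and 18.9 FPKM in LT1d and 58.1, 48.8, and 45.0 in RT1d (-1.003 ± 0.15), a call that was lost without replicate 1 of LT1d (-0.89) or replicate 1 of RT1d (-0.91). It was lower again at Day 25 (-1.74 ± 0.16).

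Anthranilate phosphoribosyltransferase attaches the ribose phosphate to anthranilate. PH02Gene34586 (scaffold 15, 5790692 to 5795810, minus strand) had 591, 676, and 626 FPKM in LT1d against 111, 64.5, and 99.6 in RT1d. In CK it had 130, 359, and 255, and by fitted fold change LT1d was 2.79-fold above CK and RT1d 3.54-fold below it. Its LT15d libraries, at 317, 317, and 322, also lay above RT15d at 79.5, 79.1, and 83.0. The log2 fold changes were 3.31 ± 0.50 at Day 1 (edgeR adjusted p = 1.6e-05) and 2.38 ± 0.48 at Day 15 (3.5e-04), the latter with an edgeR adjusted p of 0.12 with the summed libraries. PH02Gene00875 was much weaker, at 16.8, 22.5, and 21.5 FPKM in LT1d against 2.48, 2.22, and 1.996 in RT1d, a log2 fold change of 3.71 ± 0.55. PH02Gene21693 and PH02Gene07761 share the description but had no KEGG number, stayed at or below 4.16 FPKM, and were called on no day against RT.

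Indole-3-glycerol phosphate (IGP) synthase closes the indole ring. PH02Gene25595 (scaffold 19, 18086374 to 18089901, plus strand) had the largest Day 1 fold change of the 55 genes. It had 280, 377, and 339 FPKM in LT1d against 4.99, 3.90, and 7.51 in RT1d and 10.9, 5.93, and 7.60 in CK. The log2 fold change was 6.45 ± 0.68 against RT1d (edgeR adjusted p = 2.9e-07) and 5.56 against CK. It held 36.9, 33.5, and 36.7 FPKM in LT15d, above 11.8, 10.2, and 11.7 in RT15d (2.06 ± 0.56, adjusted p = 0.23 with the summed libraries). PH02Gene48192, the IGP synthase gene with the highest mean FPKM, moved less. It had 75.8, 60.3, and 92.6 FPKM in RT1d and 221, 267, and 254 in LT1d (2.22 ± 0.31). PH02Gene25595 thus held 46.9% ± 1.1 of the summed IGP synthase FPKM in LT1d and 4.02% ± 0.76 in RT1d (SD, n = 3), while the sum was 707 ± 87.9 and 134 ± 22.5. PH02Gene42748 was higher at Days 1 and 15 (2.04 ± 0.26 and 1.15 ± 0.25), the latter not with scaling to library size (0.80). PH02Gene16345 was called on no day against RT with TMM scaling, but was lower at Day 1 with scaling to library size (-1.18).

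Tryptophan synthase splits IGP to indole in its alpha subunit and joins indole with serine in its beta subunit. For the alpha subunit, PH02Gene23711 (scaffold 4, 50356632 to 50360277, plus strand) had 1026, 1337, and 1184 FPKM in LT1d, 85.9, 52.3, and 97.7 in RT1d, and 62.9, 65.0, and 77.7 in CK. For the beta subunit, PH02Gene10139 (scaffold 18, 15096166 to 15100520, plus strand) had 935, 934, and 921 FPKM in LT1d, 37.3, 27.1, and 42.0 in RT1d, and 30.1, 23.8, and 30.4 in CK. Both genes were thus far above the RT and CK libraries after 1 day at 4 °C, with log2 fold changes of 4.44 ± 0.50 and 5.24 ± 0.49 (edgeR adjusted p = 5.6e-07 and 6.5e-08). At Day 15 PH02Gene10139 had 474, 457, and 462 FPKM against 77.9, 83.8, and 80.8 in RT15d (2.92 ± 0.44), and PH02Gene23711 had 366, 360, and 359 against 119, 128, and 116 (1.97 ± 0.45). With the summed libraries the beta call remained (edgeR adjusted p = 0.049) and the alpha call did not (0.16). The other copies, PH02Gene20304 (alpha) and PH02Gene15732 (beta), had Day 1 log2 fold changes of 4.52 ± 0.50 and 3.14 ± 0.41. The alpha copies kept similar shares, with PH02Gene23711 at 71.6 to 75.6% of the summed FPKM in every group but RT25d (81.9%). The share of the beta copy PH02Gene10139 varied more. It held 71.2% ± 0.49 in LT1d, 76.8% ± 0.22 in LT15d, and 36.5% ± 0.84 in LT25d, with 37.7% ± 2.1 in CK. At 25 °C it held 36.5% ± 2.2 in RT1d, 42.2% ± 1.2 in RT15d, and 55.8% ± 2.2 in RT25d, so that it was the larger copy in RT25d as well.

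Phosphoribosylanthranilate isomerase, which acts between the phosphoribosyltransferase and IGP synthase, was not among the 63 genes because its description is worded differently. Its annotated genes, given as values only, had 62.0, 67.2, and 64.5 FPKM in LT1d against 27.5, 24.4, and 26.8 in RT1d (PH02Gene38743) and 16.7, 17.7, and 15.7 against 6.86, 5.48, and 6.54 (PH02Gene47173). The LT1d libraries of both lay above those of RT1d.

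**Figure D2:**
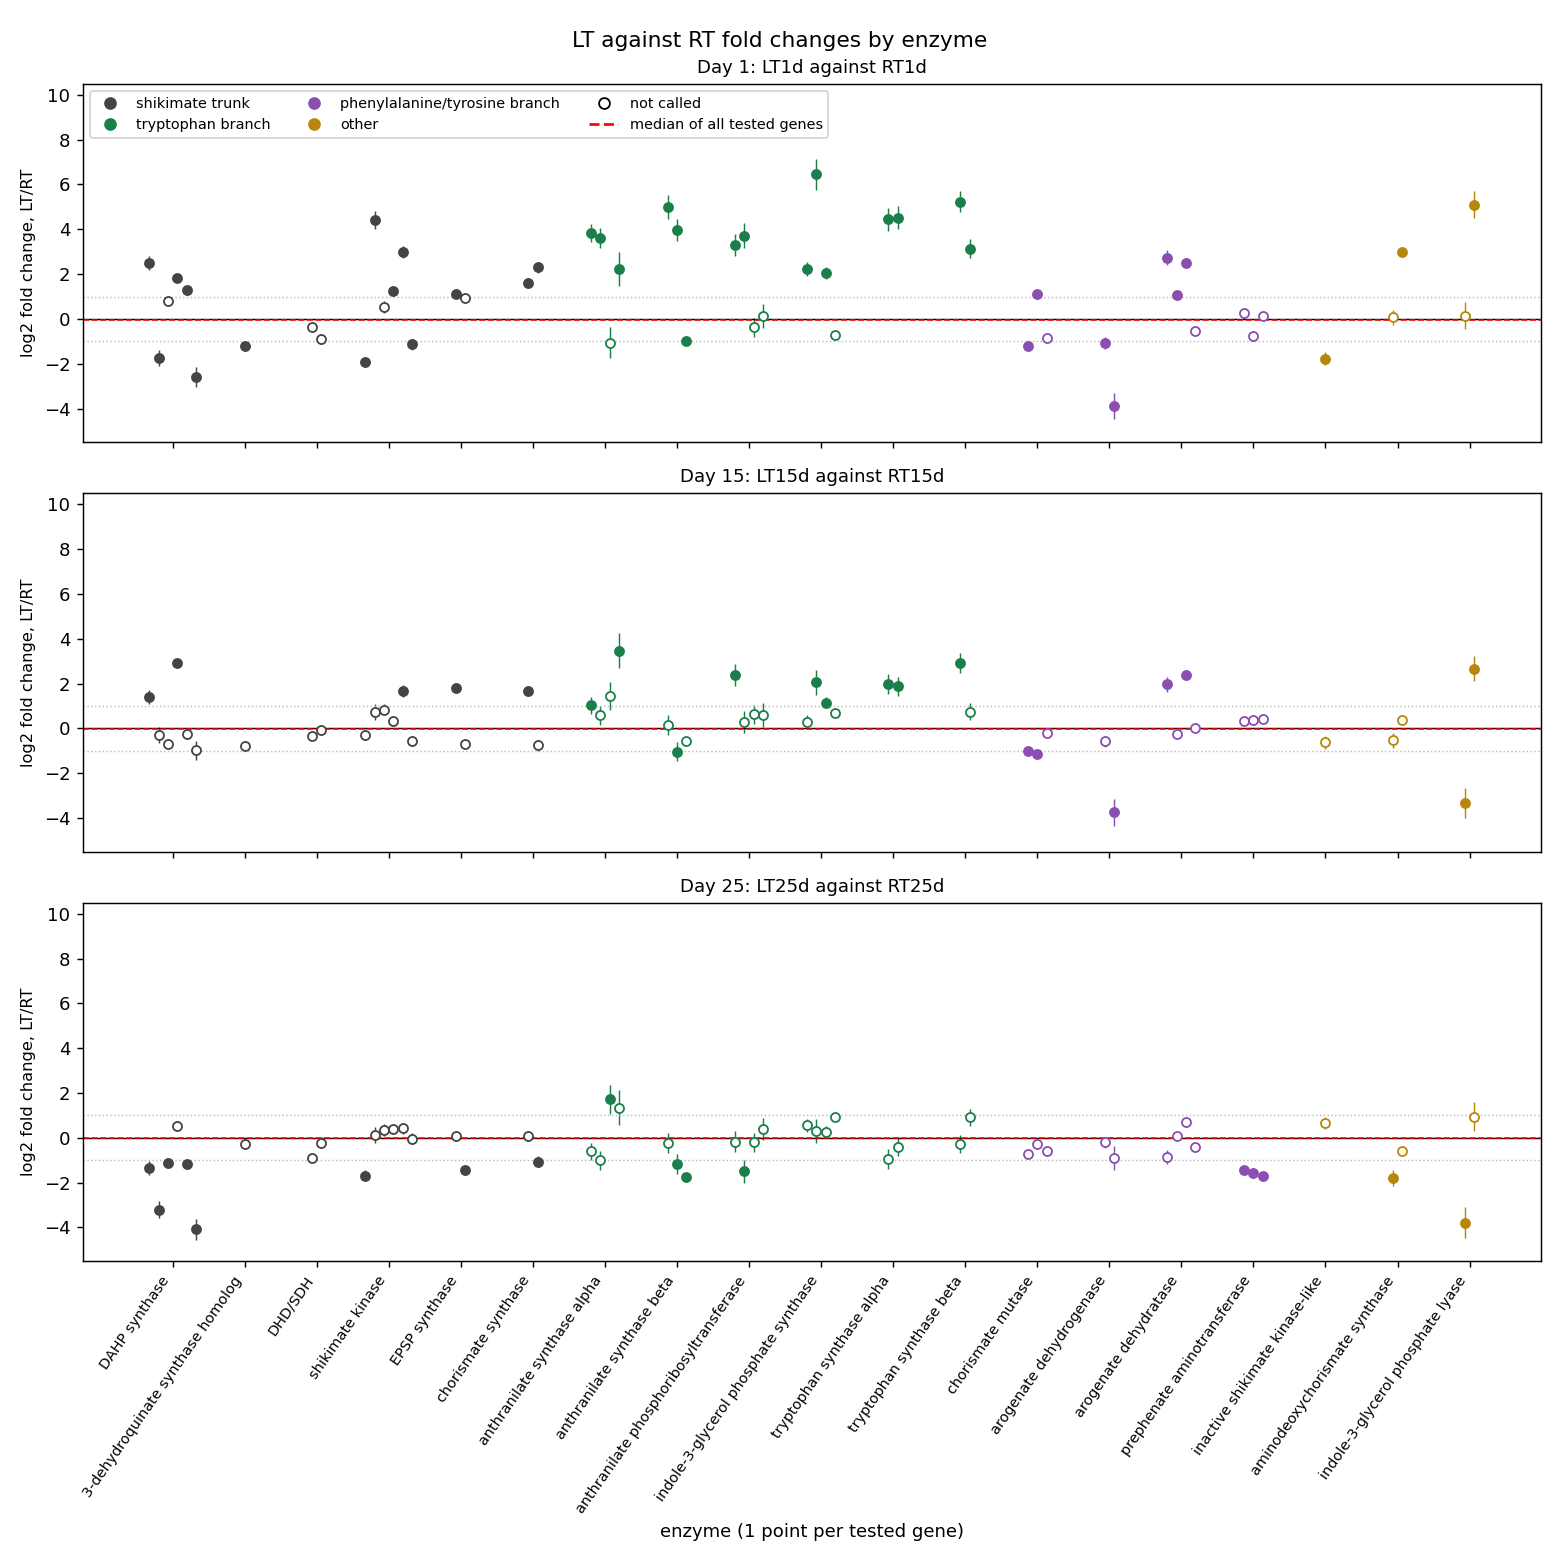
Log2 fold change of LT against RT (y axis, edgeR) for the 55 tested genes by enzyme (x axis), at Days 1, 15, and 25. Points are genes, bars their SE, filled points are called, and the dashed red line is the median of all tested genes. Tryptophan-branch genes reach 6.45 at Day 1, whereas at Day 25 only 1 gene is called higher and 16 lower.

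In the trunk, copies of the same enzyme were called in opposite directions at Day 1. DAHP synthase (3-deoxy-D-arabino-heptulosonate 7-phosphate synthase) makes the first product of the pathway. PH02Gene18212 (scaffold 4, 7031521 to 7037507, minus strand), the copy with the highest mean FPKM, had 792, 894, and 832 FPKM in LT1d against 262, 134, and 256 in RT1d and 155, 274, and 203 in CK. The LT1d libraries lay above all others, and the log2 fold change was 2.48 ± 0.32 (edgeR adjusted p = 2.5e-06) at Day 1 and 1.41 ± 0.31 at Day 15 (adjusted p = 0.15 with the summed libraries). At Day 25 the order turned, with 123.5, 121, and 122 FPKM in LT25d below 464, 307, and 182 in RT25d (-1.34 ± 0.30, edgeR adjusted p = 0.0016). Without replicate 1 of RT25d that value was -0.93, under the fold threshold.

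PH02Gene26173 (scaffold 22, 12769969 to 12773816, plus strand) followed another course. It had 47.3, 50.5, and 47.4 FPKM in LT1d against 22.5, 16.7, and 19.4 in RT1d, and 202, 186, and 189 in LT15d against 33.2, 34.3, and 32.01 in RT15d. LT15d was its highest group. The log2 fold change was 1.84 ± 0.11 at Day 1, 2.93 ± 0.12 at Day 15, and 0.55 ± 0.11 at Day 25, and the Day 15 call remained with the summed libraries (edgeR adjusted p = 2.5e-04). The LT effect was larger at Day 15 than at Day 1 (difference of log2 fold changes 1.09 ± 0.16, edgeR adjusted p = 2.6e-05).

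PH02Gene27922 and PH02Gene48249 were lower in LT than in RT at Days 1 and 25 and were not called at Day 15. PH02Gene27922 (scaffold 15, 35189422 to 35194917, minus strand) had 37.9, 26.7, and 33.2 FPKM in LT1d against 226, 69.1, and 176 in RT1d, and 29.7, 27.5, and 28.3 in LT25d against 175, 274, and 372 in RT25d. The groups did not overlap on either day (-1.75 ± 0.36 and -3.21 ± 0.38). In LT15d it had 157, 143, and 150 FPKM against 236, 247, and 242 in RT15d (-0.30 ± 0.35, not past the test). Against CK, at 8.75, 17.99, and 19.2 FPKM, it was higher in LT1d (1.23) and LT15d (3.39) and in all RT groups (2.98 to 3.82). PH02Gene48249 had 1.27 to 2.72 FPKM in LT1d against 7.03 to 25.4 in RT1d, and 1.70 to 2.199 in LT25d against 23.8 to 42.9 in RT25d (-2.60 ± 0.45 and -4.08 ± 0.48). In CK it had 1.08 to 3.43 FPKM, near the LT1d and LT25d values. Its Day 15 value (-0.97 ± 0.43, edgeR adjusted p = 0.056) was past the thresholds with scaling to library size (-1.32). Both are described as aldolase 1 forms, as is PH02Gene26173, so the description did not separate the higher from the lower copies. PH02Gene16636, an aldolase 2 form, was higher at Day 1 (1.28 ± 0.20, but 0.81 with scaling to library size) and lower at Day 25 (-1.18 ± 0.20, but -0.86 without replicate 1 of RT25d). PH02Gene40731 was lower at Day 25 (-1.13 ± 0.20, but -0.87 without replicate 1 of RT25d), and with scaling to library size also at Day 15 (-1.03).

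The copies thus made up different shares of the DAHP synthase transcripts at the 2 temperatures. PH02Gene18212 held 54.3% ± 8.2 of the summed FPKM in CK and 73.0% ± 0.89 in LT1d, against 37.4% ± 2.5 in RT1d (SD, n = 3). PH02Gene27922 held 3.94% ± 1.2 in CK, 2.86% ± 0.62 in LT1d, and 25.5% ± 4.9 in RT1d. In LT15d PH02Gene26173 held 24.3% ± 0.35, against 5.16% ± 0.17 in RT15d. Summed over 7 genes, FPKM was 382 ± 51.9 in CK, 1149 ± 56.6 in LT1d, and 588 ± 219 in RT1d. It was 791 ± 24.4 in LT15d, 643 ± 9.18 in RT15d, 298 ± 1.68 in LT25d, and 877.9 ± 99.5 in RT25d.

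**Figure D3:**
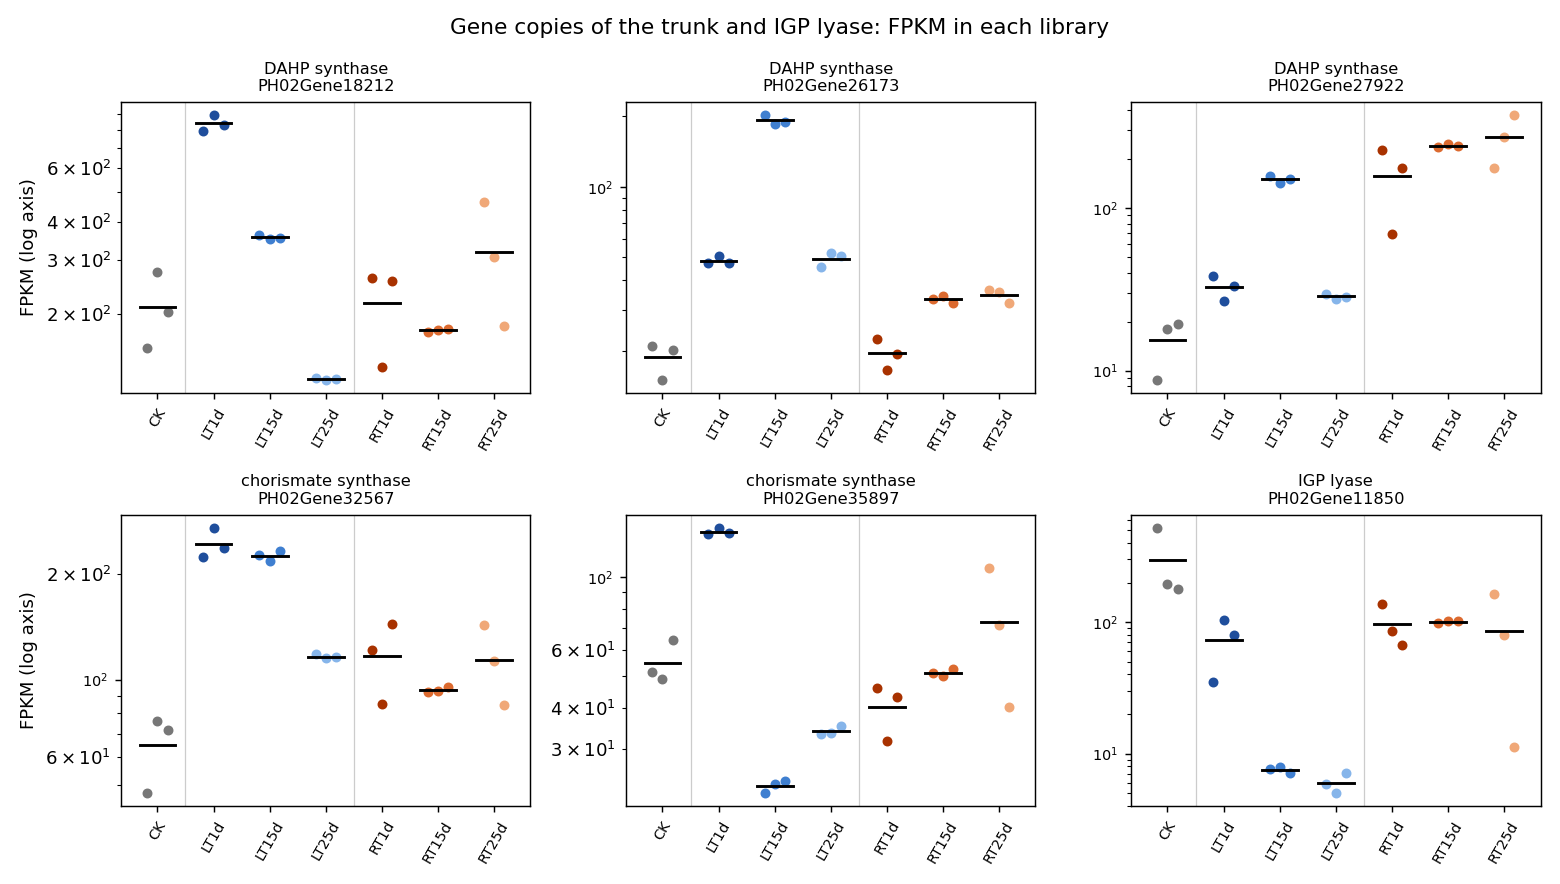
FPKM of 3 DAHP synthase, 2 chorismate synthase, and 1 IGP lyase gene in each library (y axis, logarithmic, each panel with its own range) by group (x axis). Points are libraries and bars are group means (n = 3). PH02Gene27922 is lower in LT1d and LT25d than in the matching RT groups, whereas PH02Gene26173 is highest in LT15d at 186 to 202 FPKM.

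Few genes of the middle steps were called. The 3-dehydroquinate synthase homolog PH02Gene35037 had 2.25, 1.15, and 1.02 FPKM in LT1d and 5.71, 4.82, and 4.20 in RT1d (-1.21 ± 0.22). Those annotated as the synthase itself lay outside the 63 and had 54.4, 65.9, and 56.6 FPKM in LT1d against 35.1, 24.7, and 34.2 in RT1d (PH02Gene05106) and overlapping values (PH02Gene14660). The bifunctional 3-dehydroquinate dehydratase/shikimate dehydrogenase, which forms shikimate, had the genes PH02Gene27690 and PH02Gene00668. Neither was called on any day with TMM scaling, although PH02Gene00668 was lower at Day 1 with scaling to library size (-1.35) and without replicate 1 of LT1d (-1.31). PH02Gene27690 lay at 9.43 to 9.75 FPKM in LT1d and 14.9 to 20.6 in RT1d (-0.35 ± 0.11, under the fold threshold).

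Shikimate kinase, which phosphorylates shikimate, again had copies of opposite direction. PH02Gene36586 (scaffold 24, 65980055 to 65983721, minus strand), described as shikimate kinase 3 and the copy with the highest mean FPKM, had 45.3, 32.6, and 36.7 FPKM in LT1d against 187, 165, and 272 in RT1d. It had 84.0, 32.7, and 45.7 in CK, overlapping LT1d, and by fitted fold change was 3.13-fold above CK in RT1d and 2.17-fold in RT25d. It was lower in LT at Day 1 (-1.93 ± 0.24) and Day 25 (-1.69 ± 0.24), and the Day 25 call remained with the summed libraries (edgeR adjusted p = 0.035). In contrast, both genes described as shikimate kinase 2 were higher at Day 1. PH02Gene08600 had 147, 208, and 175 FPKM in LT1d against 10.04, 8.99, and 16.9 in RT1d (4.41 ± 0.42), and PH02Gene10005 had 19.6, 36.8, and 31.1 against 3.67, 5.13, and 6.94 (3.001 ± 0.27). The CK libraries of PH02Gene08600 had 36.1, 55.9, and 46.2 FPKM. By fitted fold change LT1d was 4.29-fold above them and RT1d 4.95-fold below. The summed kinase level was 326 ± 26.9 FPKM in LT1d, 301 ± 73.5 in RT1d, and 156 ± 18.4 in CK. PH02Gene08600 held 54.0% of it in LT1d and 3.90% in RT1d, and PH02Gene36586 held 11.9% and 68.7%.

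EPSP synthase (5-enolpyruvylshikimate 3-phosphate synthase, the target of glyphosate) and chorismate synthase complete the trunk. PH02Gene14491, an EPSP synthase gene, had 134, 135, and 133 FPKM in LT1d against 96.8, 67.1, and 99.6 in RT1d, and 303, 294, and 294 in LT15d against 116, 109, and 109 in RT15d. LT15d was its highest group (log2 fold change 1.81 ± 0.21), and the Day 1 call (1.13 ± 0.20) was lost with scaling to library size (0.66) and without replicate 2 of RT1d (0.97). The other EPSP synthase gene, PH02Gene13013, had 56.0, 54.5, and 58.8 FPKM in LT1d against 49.1, 33.4, and 43.1 in RT1d (0.95 ± 0.18, under the fold threshold, and 1.07 without replicate 1 of RT1d). At Day 15 it ran the other way, with 28.3, 26.8, and 25.8 FPKM in LT15d below 57.6, 56.9, and 57.8 in RT15d (-0.70 ± 0.18, under the fold threshold, and -1.04 with scaling to library size). It was lower at Day 25 (-1.42 ± 0.18), also with the summed libraries (edgeR adjusted p = 0.024). PH02Gene32567, a chorismate synthase gene, had 225, 272, and 237 FPKM in LT1d against 122, 85.4, and 144 in RT1d, and 228, 218, and 233 in LT15d against 92.4, 92.5, and 95.0 in RT15d (1.59 ± 0.23 and 1.67 ± 0.23). The Day 15 calls of PH02Gene14491 and PH02Gene32567 remained with the summed libraries (edgeR adjusted p = 0.019 and 0.038). The other chorismate synthase gene, PH02Gene35897, had 136, 142, and 137 FPKM in LT1d against 45.9, 31.7, and 43.1 in RT1d (2.30 ± 0.25). At Day 15 its LT15d libraries, at 22.0, 23.4, and 23.9, lay below 51.1, 49.9, and 52.6 in RT15d (-0.75 ± 0.24, under the fold threshold, and -1.10 with scaling to library size), and at Day 25 it was lower in LT (-1.07 ± 0.24, -0.64 without replicate 1 of RT25d). PH02Gene32567 held 90.7% of the summed chorismate synthase FPKM in LT15d and 64.6% in RT15d.

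In the phenylalanine and tyrosine branch, the first step did not follow anthranilate synthase. Chorismate mutase converts chorismate to prephenate. PH02Gene24639 had 18.9, 19.1, and 19.0 FPKM in LT1d against 67.0, 51.4, and 71.6 in RT1d, and 17.9, 19.97, and 19.1 in LT15d against 51.1, 46.9, and 52.8 in RT15d. The CK libraries, at 26.0, 17.1, and 19.5, lay near the LT values. It was lower in LT on both days (-1.21 ± 0.11 and -1.01 ± 0.11), although the Day 15 value fell short of the fold threshold with the summed libraries (-0.97), without replicate 1 of LT15d (-0.96), and without replicate 3 of RT15d (-0.98). PH02Gene00760 was higher at Day 1 (1.12 ± 0.19, 0.64 with scaling to library size, and 0.96 without replicate 2 of LT1d) and lower at Day 15 (-1.15 ± 0.19). PH02Gene42959 was not called with TMM scaling, but was lower at Day 1 with scaling to library size (-1.33) and without replicate 1 of LT1d (-1.12). Summed mutase FPKM was 46.9 ± 1.41 in LT1d, 98.9 ± 11.6 in RT1d, and 50.6 ± 14.1 in CK. Summed anthranilate synthase alpha FPKM was 963 ± 65.4, 102 ± 29.6, and 333 ± 132 in the same groups.

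Arogenate dehydrogenase makes tyrosine and arogenate dehydratase makes phenylalanine. The dehydrogenase genes were low. PH02Gene02823 had 0.338, 0.0434, and 0.456 FPKM in LT1d against 8.08, 4.35, and 5.85 in RT1d (-3.89 ± 0.60), and at most 0.355 in LT15d against at least 2.82 in RT15d (-3.75 ± 0.61). PH02Gene37068 had 2.88 to 4.12 FPKM in LT1d against 7.62 to 13.2 in RT1d (-1.08 ± 0.26, and -0.87 without replicate 1 of RT1d). Both were thus lower in LT1d than in RT1d. In CK, PH02Gene02823 had 0.596 to 1.74 FPKM and PH02Gene37068 had 2.66 to 3.48. Of the dehydratase genes, PH02Gene10349 had 125, 160, and 138 FPKM in LT1d against 38.8, 28.1, and 24.9 in RT1d, and 28.8, 29.1, and 29.1 in LT15d against 10.4, 9.65, and 9.31 in RT15d (2.74 ± 0.35 and 1.96 ± 0.34). Its CK libraries, at 43.0, 164, and 99.3, overlapped LT1d, and RT15d was lower than CK (-3.70). PH02Gene00100 had 20.96, 19.2, and 19.9 FPKM in LT1d against 5.52, 3.67, and 6.10 in RT1d (2.497 ± 0.21), and its Day 15 call (2.39 ± 0.21) remained with the summed libraries (edgeR adjusted p = 0.0058).

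Prephenate aminotransferase, which makes arogenate, was called against RT at Day 25 only with TMM scaling. With scaling to library size PH02Gene22301 was also lower at Day 1 (-1.23). Against CK, 2 of the 3 genes were higher in LT1d and 3 in LT15d. At 25 °C, 1 was higher than CK in RT1d and all 3 in RT15d and in RT25d. No gene was called in LT25d against CK. Against RT25d, all 3 genes were lower in LT25d, among them PH02Gene32343 with 13.8, 14.0, and 15.4 FPKM against 44.8, 41.1, and 33.6 in RT25d (-1.43 ± 0.14, edgeR adjusted p = 4.2e-07). The log2 fold changes of the 3 genes were -1.72 to -1.43, and each was also called without any 1 RT25d library and with the summed libraries.

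At Day 15, 16 of the 55 genes were higher and 5 lower in LT15d, where 19.3% of all tested genes were higher and 20.8% lower (40.1% together). The split was 14 and 10 with scaling to library size, where 4079 of all 29913 tested genes were higher and 8569 lower. With limma on log2(FPKM + 1) it was 12 and 9, where 3010 of all tested genes were higher and 6342 lower. With the summed libraries, where LT15d and RT15d were 1 library each, calls became fewer both here and over all genes. The median log2 fold change there was 0.37 for the 55 genes and 0.01 for all tested genes. The tryptophan branch held 8 of the 16 higher genes. Its summed FPKM was 2014 ± 11.0 in LT15d and 1007 ± 4.52 in RT15d. All 16 were also higher at Day 1. Among the 8 was PH02Gene06033, with 1.06, 1.10, and 1.26 FPKM in LT15d and at most 0.257 in RT15d. Outside LT15d this gene reached an FPKM of 1 only in replicates 1 and 2 of CK, so it passed the filter through LT15d. Its Day 15 call, also with the summed libraries, is therefore no support for the branch.

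At Day 25, 1 gene was higher and 16 lower in LT25d, against 11.3% and 13.2% of all tested genes (24.5% together). The trunk held 8 of the lower genes, 5 of them DAHP synthase genes, the phenylalanine and tyrosine branch 3, and the tryptophan branch 3 of its 19. Without replicate 1 of RT25d the trunk held 4 and the tryptophan branch 1, and the same counts were found with the summed libraries, where 8 genes were lower in all. In both settings the trunk lost PH02Gene18212, PH02Gene40731, PH02Gene16636, and PH02Gene35897. The gene called higher, PH02Gene33171, had at most 1.49 FPKM in any library and was not called with the summed libraries (edgeR adjusted p = 0.29) or when any library of LT25d or RT25d was left out. In the tryptophan branch, RT25d libraries spread widely. PH02Gene23711 had 171, 171, and 167 FPKM in LT25d and 604, 317, and 75.7 in RT25d (-0.94 ± 0.43), and PH02Gene10139 had 115, 119, and 123.1 against 270, 135, and 35.3 (-0.28 ± 0.41).

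The same RT25d libraries were high and low for most of the branch. Of the 15 tryptophan-branch genes with a mean FPKM of at least 5, 14 were highest in replicate 1 and lowest in replicate 3 of RT25d, as were 11 of 18 trunk genes, 5 of 11 phenylalanine and tyrosine genes, and 32.8% of the 17251 tested genes of that level that were above 0 in all 3 RT25d libraries. The median ratio of the highest to the lowest RT25d library was 6.42 for the tryptophan branch, 1.79 for the trunk, and 1.30 for all genes, and for the tryptophan branch it was 1.06 in LT25d. Without replicate 1 of RT25d 2 genes were higher and 10 lower at Day 25, and without replicate 3 these numbers were 1 and 19. PH02Gene23711, for example, was called lower without replicate 3 (-1.42), and PH02Gene48192 was called higher without replicate 1 (1.12). The Day 25 calls of PH02Gene03976 and PH02Gene00875 (-1.17 ± 0.44 and -1.49 ± 0.51) were lost without replicate 1 (-0.52 and -0.82), and also without replicate 2 or without any library of LT25d (adjusted p = 0.057 to 0.092).

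**Figure D4:**
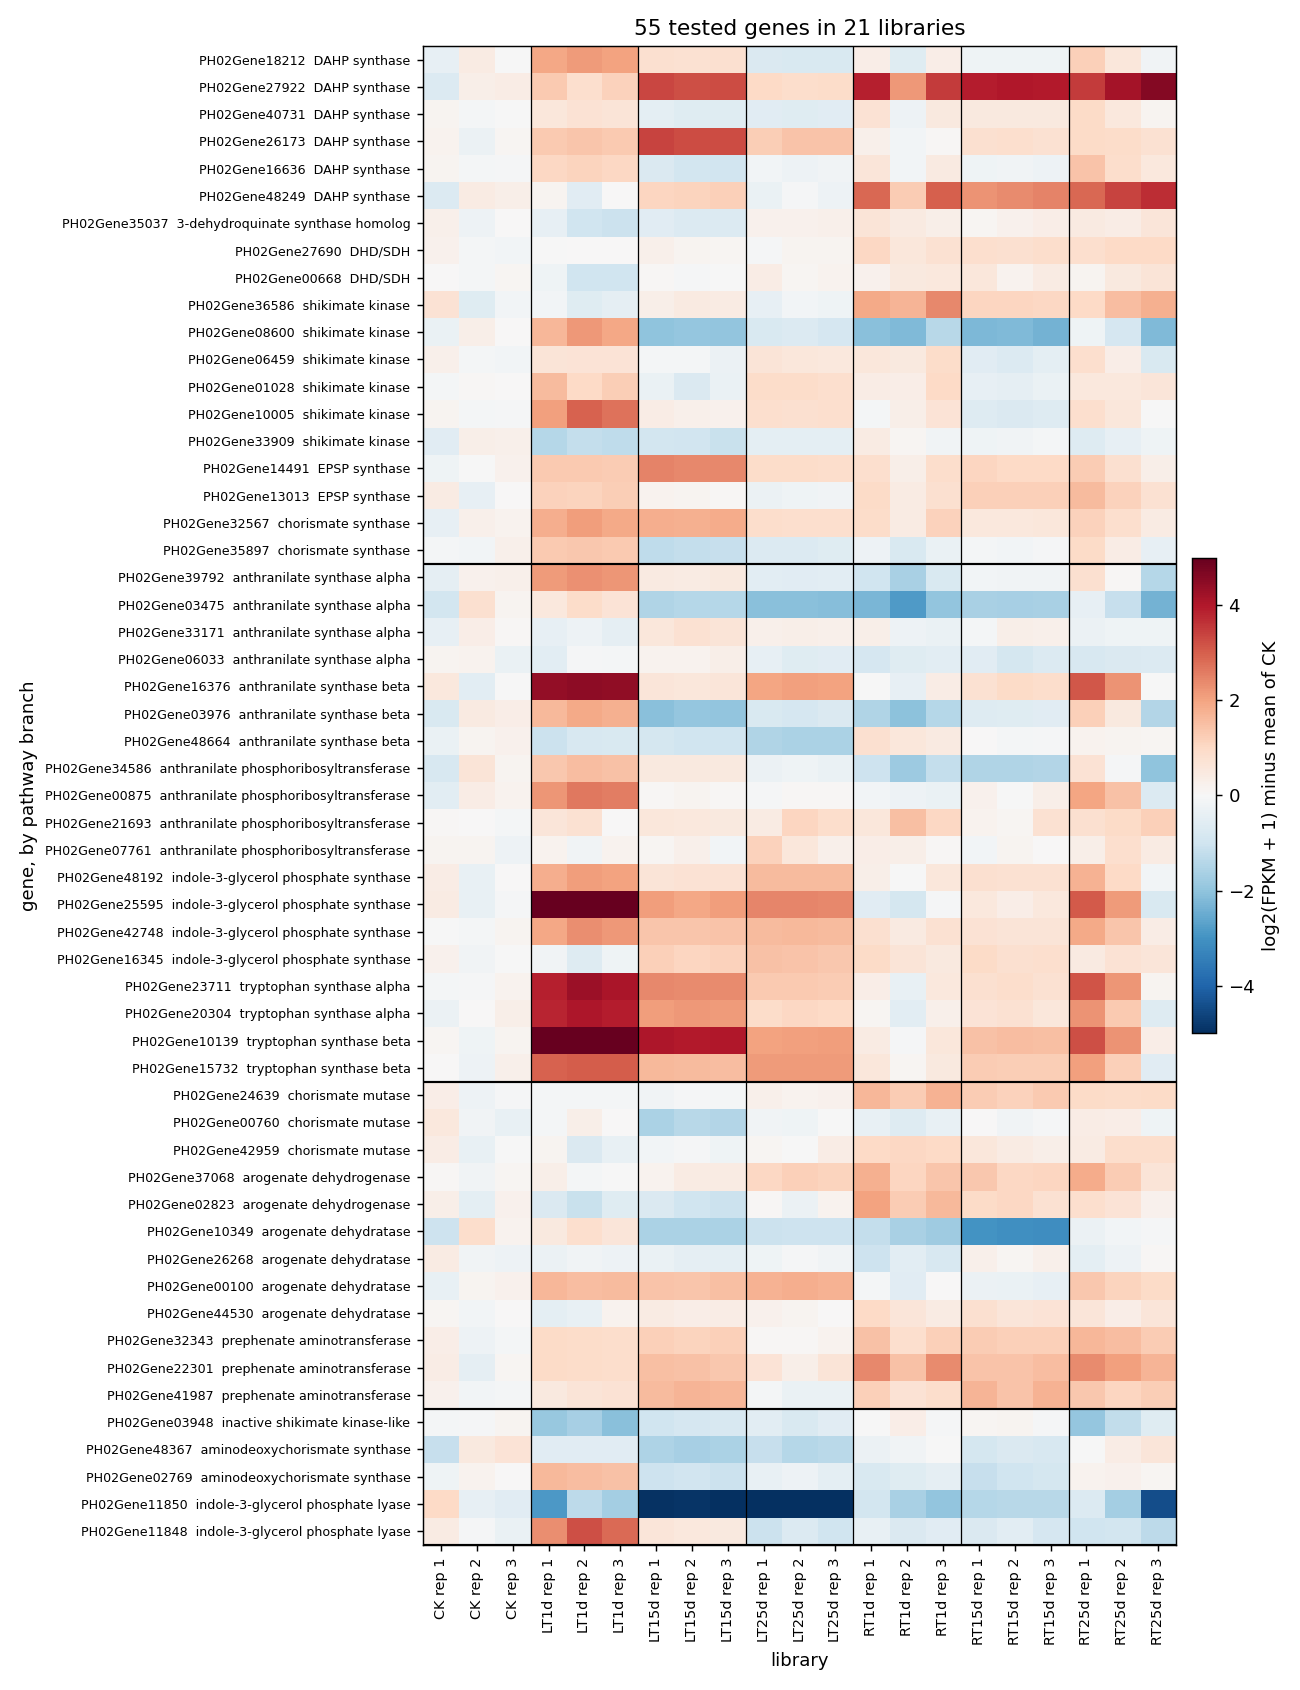
Log2(FPKM + 1) of the 55 tested genes (rows, by branch: trunk, tryptophan, phenylalanine and tyrosine, other) in 21 libraries (columns), minus the mean of the 3 CK libraries (colour, -5 to 5). Most of the tryptophan block is red in LT1d and paler in LT15d and LT25d, and among the RT25d libraries it is red in replicate 1 and near or below CK in replicate 3.

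The LT effect itself was compared between days. From Day 1 to Day 25 it differed for 47 of the 55 genes, with a lower value at Day 25 for 39 and a higher one for 8, where 29.6% and 29.2% of all genes (58.8% together) did so. With the summed libraries 31 differed (28 lower, 3 higher). The tryptophan branch had 14 lower and 2 higher of 19, for example PH02Gene25595 with a difference in log2 fold change of -6.15 ± 0.82 (edgeR adjusted p = 6.7e-06), PH02Gene10139 with -5.51 ± 0.61 (8.8e-07), and PH02Gene16376 with -5.21 ± 0.67 (4.3e-06). From Day 1 to Day 15, 35 differed (25 lower, 10 higher, against 23.2% and 23.4% of all genes, 46.6% together), and 10 with the summed libraries. From Day 15 to Day 25, 28 differed (25 lower, 3 higher, against 21.9% and 21.3%, 43.2% together, and 19 and 8 with scaling to library size), and 3 with the summed libraries.

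Against culms before treatment, 29 genes were higher and 5 lower in LT1d, where 14.2% and 19.8% of all genes were higher and lower (34.0% together). The tryptophan branch contributed 13 and 1. In RT1d 8 were higher and 11 lower (9.19% and 13.6% of all genes, 22.8% together, and 11 and 8 with scaling to library size), and 5 of the 11 were tryptophan-branch genes. At Day 15, LT15d had 17 higher and 11 lower (16.2% and 22.4%, 38.6% together, and 14 and 4 with the summed libraries) and RT15d 8 and 10 (10.4% and 15.3%, 25.7% together, and 11 and 9 with scaling to library size or 6 and 3 with the summed libraries). At Day 25, LT25d had 12 higher and 10 lower (11.3% and 17.0%, 28.3% together, and 16 and 6 with scaling to library size or 4 and 2 with the summed libraries) and RT25d 14 and 6 (11.0% and 15.3%, 26.2% together, and 21 and 5 with scaling to library size or 5 and 2 in a fit of these libraries alone). These 6 comparisons share the CK libraries.

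The tryptophan synthase beta genes differed in the order of their levels. PH02Gene10139 had log2 fold changes against CK of 5.24 (LT1d), 4.19 (LT15d), and 1.83 (LT25d), and of 1.28 in RT15d and 2.11 in RT25d. All of these were called in the main fit, while RT1d (0.00) was not. The RT25d libraries had 270, 135, and 35.3 FPKM, with replicate 3 near the CK libraries (23.8 to 30.4). For this gene LT25d and RT25d were not distinguishable at their spread. PH02Gene15732 had 3.20 (LT1d), 1.73 (LT15d), and 1.90 (LT25d), all called, with LT25d at 205 to 208 FPKM above LT15d at 138 to 144. Its values in RT1d, RT15d, and RT25d (0.06, 0.99, and 0.97) were not called.

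Other enzymes that use chorismate or IGP had courses of their own. IGP lyase releases free indole, a defence compound and volatile known from maize, and its genes PH02Gene11850 and PH02Gene11848 lie near each other on scaffold 15 (94808110 to 94808834 and 94873462 to 94875968, minus strand). PH02Gene11850 had 522, 195, and 179 FPKM in CK, 98.6, 101, and 101 in RT15d, and 7.62, 7.84, and 7.12 in LT15d. In LT25d it had 5.88, 5.03, and 7.07, below all RT25d libraries (164, 79.9, and 11.1), while LT1d (35.1, 104, and 80.4) and RT1d (138, 85.6, and 66.4) overlapped. The log2 fold changes were 0.14 ± 0.60 at Day 1, -3.34 ± 0.67 at Day 15 (edgeR adjusted p = 3.2e-04), and -3.79 ± 0.68 at Day 25 (2.4e-04), with adjusted p of 0.11 and 0.086 for the later days once the libraries were summed. PH02Gene11848 was higher in the cold at Day 1, with 11.3, 22.4, and 16.8 FPKM in LT1d against 0.910, 0.517, and 0.689 in RT1d (5.10 ± 0.59).

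A neighbouring gene was likewise low in LT15d and LT25d. PH02Gene11851 (scaffold 15, 94741234 to 94743199), described as hypothetical but annotated as a tryptophan synthase alpha chain, lies outside the 63 and was chosen after its values were seen. It had 1650, 833, and 670 FPKM in CK, 463, 438, and 457 in RT15d, 35.2, 37.3, and 32.7 in LT15d, and 20.8, 21.9, and 22.1 in LT25d. At Day 1 its values overlapped, at 81.4, 256, and 187 in LT1d and 420, 244, and 208 in RT1d. Of 3 more genes annotated in the same way outside the 63, PH02Gene11852 had 15.0 to 16.0 FPKM in LT15d and 28.9 to 29.5 in RT15d. Its Day 1 values also overlapped (17.2 to 38.4 in LT1d, 28.7 to 30.5 in RT1d). PH02Gene06738 had 125 to 225 FPKM in CK and overlapping low values in LT15d (2.36 to 3.22) and RT15d (2.28 to 3.62). It had 18.3 to 36.8 in LT1d and 4.08 to 6.53 in RT1d. PH02Gene06739 had 55.2 to 162 FPKM in CK, 0.962 to 1.16 in LT15d and 0.850 to 1.63 in RT15d, with 9.99 to 18.8 in LT1d and 2.01 to 3.31 in RT1d. These values were not tested. The tryptophan synthase alpha genes among the 63 had their highest values in LT1d.

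Aminodeoxychorismate synthase leads to folate. PH02Gene48367 was lower at Day 25, with 5.72, 4.67, and 4.86 FPKM in LT25d against 13.9, 18.4, and 22.2 in RT25d (-1.79 ± 0.34, edgeR adjusted p = 0.093 with the summed libraries), whereas PH02Gene02769 was higher at Day 1 (15.4 to 17.4 FPKM against 2.51 to 3.42, 2.99 ± 0.18). PH02Gene03948, a shikimate kinase-like protein described as probably inactive, had 2.65, 3.28, and 2.14 FPKM in LT1d against 12.3, 15.9, and 11.7 in RT1d (-1.78 ± 0.28).

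Genes that feed the pathway or use its products were grouped by description, and their counts stand beside the shares of all tested genes that were higher and lower (20.8% and 23.4% at Day 1, 19.3% and 20.8% at Day 15, and 11.3% and 13.2% at Day 25). With scaling to library size, 4238 of all 29913 tested genes were higher and 10257 lower at Day 1, and 4079 and 8569 at Day 15. Of 5 tested genes for transketolase and the phosphoenolpyruvate translocator, which supply the substrates, 1 was lower at Day 1 (PH02Gene13621, -1.50 ± 0.19), 1 was higher and 1 lower at Day 15, and at Day 25 all 5 lay between -0.77 and 0.82, within the fold threshold. Of 13 genes for phenylalanine ammonia-lyase, which commits phenylalanine to phenylpropanoids, 5 were higher and 1 lower at Day 1 (2 and 3 with scaling to library size). At Day 15, 1 was higher and 2 lower (1 and 5 with scaling to library size), and at Day 25 all 13 were lower, at -8.03 to -1.81. With the summed libraries 4 of the 13 were lower at Day 25. Of 12 tyrosine or aromatic amino acid decarboxylase genes, which lead to amines, 6 were tested. Among these, 4 were higher and 1 lower at Day 1, 3 and 1 at Day 15, and 1 was higher at Day 25. Of 15 genes of the indole-3-pyruvate route to auxin, 4 were tested. Among them, 1 was higher and 1 lower at Day 1, 1 and 2 at Day 15, and 2 were lower at Day 25. The Day 15 calls of the ammonia-lyase genes, and the Day 15 and Day 25 calls of the decarboxylase and auxin genes, were lost with the summed libraries.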

How the data were processed

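RNA-seq was performed on P. nigra culms in 7 groups of 3 libraries. The authors mapped clean reads to the Phyllostachys edulis genome with HISAT2 and computed FPKM with StringTie and ballgown, so reads of one species were placed on the genes of another. The deposited table also holds estimated counts per gene, as whole numbers. Not given in the sources used here were the tool that made them, strand use, and the handling of reads with several positions. The submitters' processing notes also name cutadapt, FastQC, and Salmon.

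The estimated counts were tested with edgeR (version 4.0.16, quasi-likelihood, TMM, all 7 groups in 1 fit) in R 4.3.3, after keeping genes that reached an FPKM of 1 in 3 libraries or more. Calls required an adjusted p of at most 0.05 and a fold change of at least 2, and differences of the LT effect between days the adjusted p alone. Values of single libraries are FPKM. Alternatives were DESeq2 (1.42.0), limma (3.58.1) on log2(FPKM + 1) and log2(FPKM + 0.1), other scalings and filters, a replicate block, and libraries left out. Fits were tested on simulated data. Tables and figures were made with Python 3.11.15, pandas 2.3.3, and matplotlib 3.10.9.

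Named were, per enzyme, the gene with the highest mean FPKM, per LT against RT comparison up to 4 called genes in each direction with the largest change and no overlap (mean FPKM of at least 5 in the higher group), and genes called in opposite directions on different days (31 in all). Genes named beyond these were chosen after their values were seen. Members and lists were chosen with earlier results of these data known.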

Additional observations from a re-analysis of the deposited data

Results flagged for a closer look

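For 6 genes called both higher and lower in LT on different days, the LT effect differed between days by the edgeR test of the difference. The genes were chosen by their calls in the same fit, so this outcome was largely fixed in advance and adds no support. The Day 25 calls of PH02Gene18212, PH02Gene16636, PH02Gene35897, PH02Gene03976, and PH02Gene00875 were lost without replicate 1 of RT25d. The Day 15 call of PH02Gene03976 was lost when any library of LT15d or RT15d was left out. Values are differences of log2 fold changes, later day minus earlier day. PH02Gene18212 (DAHP synthase) had -1.07 from Day 1 to Day 15 (adjusted p = 0.047), -3.82 from Day 1 to Day 25 (1.2e-06), and -2.75 from Day 15 to Day 25 (8.4e-05). PH02Gene16636 (DAHP synthase) had -1.55 (2.1e-04), -2.46 (1.0e-06), and -0.91 (0.013) over the same intervals. PH02Gene35897 (chorismate synthase) had -3.06 from Day 1 to Day 15 (2.1e-06) and -3.37 from Day 1 to Day 25 (3.1e-07). PH02Gene03976 (anthranilate synthase beta) had -4.99 (9.3e-06) and -5.13 (3.4e-06), and PH02Gene00875 (anthranilate phosphoribosyltransferase) -3.42 (0.0010) and -5.20 (1.4e-05). PH02Gene00760 (chorismate mutase) had -2.27 from Day 1 to Day 15 (3.8e-06), -1.41 from Day 1 to Day 25 (2.1e-04), and 0.86 from Day 15 to Day 25 (0.015), the only positive value among them.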

How the results depend on the processing

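Summing LT15d, LT25d, and RT15d each to 1 library, chosen after seeing the data, moved the number of genes called from 21 to 7 at Day 15 and from 17 to 8 at Day 25, from 28 to 18 for LT15d, 22 to 6 for LT25d, and 18 to 9 for RT15d against CK, and for differences between days from 35 to 10 (Day 1 to 15), 47 to 31 (Day 1 to 25), and 28 to 3 (Day 15 to 25), while the 39 calls of Day 1 remained. Fitting only the compared libraries moved RT25d against CK from 20 to 7. Leaving out 1 library gave 36 to 40 calls for LT against RT at Day 1, 18 to 20 at Day 15, and 12 to 20 at Day 25, and against CK 32 to 35 for LT1d, 25 to 27 for LT15d, 16 to 25 for LT25d, 17 to 20 for RT1d, 15 to 20 for RT15d, and 17 to 22 for RT25d. Of 1572 values of named genes under the alternatives, 1489 kept their side of the threshold, 69 lost and 14 gained a call, and no called value changed sign, while 39 uncalled values did. The cause was not tested.

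Replicate numbers are shared by the groups, but samples with the same number did not deviate together (63 pairs, r = -0.18 to 0.15, 2 over 0.1). The numbers thus showed no pairing. The check cannot exclude one, least of all in LT15d, LT25d, and RT15d, whose libraries differed little. With the replicate block, LT against RT gave 39, 20, and 16 calls at Days 1, 15, and 25, against CK there were 34 (LT1d), 29 (LT15d), 21 (LT25d), 19 (RT1d), 19 (RT15d), and 19 (RT25d), and 33, 47, and 27 differences between days. Among the named genes only the Day 15 and Day 25 calls of PH02Gene03976 were lost under the block (adjusted p = 0.062 and 0.057).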
